A study of Saccharomyces cerevisiae with 34 samples.

Results

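The galactose response of wild-type budding yeast (Saccharomyces cerevisiae) was taken from 6 of the 34 RNA-seq libraries of a study on mislocalization of CENP-A Cse4, the centromeric histone H3 variant. Every library whose label gives the genotype WT was used, 3 from cells before galactose (t0) and 3 from cells after 2 h in galactose (t2). The strains were haploid MATa cells isogenic to W303, with ura3, leu2, his3, trp1, ade2, can1, bar1 and bud4 mutations and a functional *RAD5* gene, and they carried no tagged histone and no gene driven by a GAL promoter. Asynchronous cells were grown to log phase in YEP with lactic acid at 23 °C and galactose was then added to 2%, so the t0 cells had lactate as carbon source and the t2 cells had galactose as well. There were 3 batches. Each batch used a strain of its own at both times, so strain and batch cannot be told apart in WT, and the elapsed 2 h of growth and the added sugar cannot be told apart either, since no t2 library without galactose was analysed here.

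Galactose enters yeast through the permease Gal2 and is turned into glucose-1-phosphate by the kinase Gal1, the uridylyltransferase Gal7 and the epimerase Gal10, after which the phosphoglucomutase Pgm2 gives glucose-6-phosphate. The activator Gal4 binds the promoters of these genes and is held inactive by Gal80 until Gal3, bound to galactose, relieves it. Lactate is imported by Jen1 and oxidized to pyruvate by Cyb2 and Dld1, and cells living on it have to make sugar phosphates by gluconeogenesis, with Pck1 and Fbp1 as the committed enzymes. Genes for gluconeogenesis are known to be switched off when a fermentable sugar is present.

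The 6 libraries held between 5589141 and 6321150 counts on 6209 genes, within the range of 5258139 to 6836827 counts over all 34 libraries, and 3 counts of such a total correspond to 0.475 to 0.537 CPM, that is, counts per 1000000 counts of a library. Levels below are CPM after TMM normalization, which scales each library by the bulk of its genes, and are given in the order batch 1, batch 2 and batch 3. Markers of a cells were present in every library, with a summed level of 436 to 619 CPM at t0 and 593 to 766 CPM at t2 for the 6 genes listed. Most of this sum came from *STE2* (232 to 436 CPM) and *STE6* (158 to 255 CPM). *MFA1*, *ASG7* and *AGA2* were each at 14.4 CPM or less in every library, below the alpha cell gene *SAG1* (47.0 to 56.2 CPM). *MFA2* (25.2 to 60.2 CPM) overlapped *SAG1*. The alpha cell gene *STE3* had at most 4 counts in any of the 6 libraries, and the 3 alpha cell genes measured summed to 54.1 to 63.0 CPM, most of it from *SAG1*, which had 257 to 360 counts. One library stood apart, and this was known from earlier results of these data. The t0 library of batch 3 differed from those of batches 1 and 2 by a chi-square of 51.7 and 53.8 per degree of freedom over genes, against 6.48 between batches 1 and 2 and 8.54 to 22.2 among the t2 libraries, so counts and the values most affected are also given without batch 3.

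Changes from t0 to t2 were tested by edgeR's quasi-likelihood method with batch as a block, and calls needed an adjusted p (Benjamini-Hochberg, over all genes) under 0.05 together with a change of at least 1.5-fold. Of the 6209 genes, 94 were called higher at t2 (1.51% of genes tested) and 184 were called lower (2.96%). Counting adjusted p alone, with no limit on the change, 467 genes were higher (7.52%) and 525 were lower (8.46%). List counts over all batches given below are to be read beside these shares. Without batch 3 the calls rose to 189 higher (3.04%) and 324 lower (5.22%), without batch 2 there were 60 higher and 101 lower, and without batch 1, which leaves batch 3 and one of the other batches, only 21 higher and 13 lower remained from the lists above. List counts with a batch left out are to be read beside these counts of all 6209 genes. With a batch left out only 1 residual degree of freedom remains. Without batch 3 the prior degrees of freedom of edgeR were infinite, against 5.21 with all batches, so all genes then share 1 estimate of the spread around a trend, the p-values are too small for genes that vary more, and all counts without batch 3 carry this limit. DESeq2 without batch 3, added after seeing the data, called 135 higher and 252 lower. Every one of the 278 called genes moved in the same direction in all 3 batches, as did 3168 of all 6209 genes. The calls rest on these same changes, so this is not separate support for them. A change of at least 1.5-fold within each batch separately was seen for 40 of the 94 genes called higher and for 70 of the 184 called lower. Over all 6209 genes this was so for 114, in either direction.

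Sequences of the kind read by Gal4 were searched for upstream of every gene, written here as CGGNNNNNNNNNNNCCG, a palindrome that reads alike on both strands. The sequences come from the R64 reference genome, whose coordinates are those of sacCer3, and the capitals mark the fixed ends of each match. The region between *GAL10* and *GAL1*, which are transcribed away from each other and lie 668 bases apart, holds 3 matches within 114 bases and is shown on the plus strand.
GAL10 to GAL1, chrII:278538-278651: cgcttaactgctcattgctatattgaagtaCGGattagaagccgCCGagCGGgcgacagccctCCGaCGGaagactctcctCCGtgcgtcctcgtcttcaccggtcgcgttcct
For other genes called higher, matches upstream of the start codon are shown with 8 bases on either side, on the strand of the gene. *GAL2* has 4 matches, of which the 2 farthest from its start codon are shown, and those of *SSA4*, YGR160W and *SFL1*, which shares the match of *RUP1*, are not shown. Binding of Gal4 was not measured.
GAL7, chrII:275695-275727: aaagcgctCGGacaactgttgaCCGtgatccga
GAL2, chrXII:289788-289820: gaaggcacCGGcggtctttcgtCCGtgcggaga
GAL2, chrXII:289807-289839: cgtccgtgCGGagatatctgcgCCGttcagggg
GAL3, chrIV:463138-463170: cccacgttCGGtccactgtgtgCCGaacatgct
GAL80, chrXIII:171414-171446: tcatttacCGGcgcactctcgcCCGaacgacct
MTH1, chrIV:1016147-1016179: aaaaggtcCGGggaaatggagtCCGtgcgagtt
GCY1, chrXV:550737-550769: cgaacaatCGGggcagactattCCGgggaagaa
PCL10, chrVII:255423-255455: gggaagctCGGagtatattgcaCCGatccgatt
YEL057C, chrV:46111-46143: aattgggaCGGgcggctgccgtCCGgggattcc
RGL1, chrXVI:426127-426159: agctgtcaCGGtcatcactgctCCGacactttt
FAR1, chrX:126663-126695: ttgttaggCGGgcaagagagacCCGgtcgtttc
MLF3, chrXIV:488266-488298: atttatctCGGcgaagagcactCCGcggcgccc
RUP1, chrXV:586481-586513: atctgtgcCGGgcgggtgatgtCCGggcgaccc
The match of *RGL1* is also that of YPL067C, which is transcribed from the same 385-base gap in the other direction. A match does not by itself mark a gene that rose, and those of *GAL4* and of *REE1* are given for comparison, since *GAL4* was not called and *REE1* was called lower.
GAL4, chrXVI:82802-82834: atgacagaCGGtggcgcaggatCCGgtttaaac
REE1, chrX:22869-22901: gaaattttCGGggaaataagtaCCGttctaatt

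The genes of galactose uptake and breakdown had the largest rises of all genes tested. *GAL1*, the galactokinase gene (chrII:279021-280607, plus strand), stood at 26.7, 31.0 and 38.5 CPM at t0 and at 13805, 15389.8 and 14490.3 CPM at t2. The t0 and t2 libraries were far apart and the 3 batches lay close together at each time. *GAL1* rose by 8.84 ± 0.16 (SE) on the log2 scale, or 458-fold (n = 3 per time, edgeR adjusted p = 3.4e-07). *GAL10*, which encodes the epimerase (chrII:276253-278352, minus strand), had 24.5, 24.2 and 28.1 CPM at t0 and 7770.3, 8518 and 7765 CPM at t2, a log2 rise of 8.29 ± 0.14 (SE, edgeR adjusted p = 3.4e-07). *GAL7*, the gene of the uridylyltransferase (chrII:274427-275527, minus strand), had the lowest t0 level of the set, at 2.03, 2.84 and 6.62 CPM, and reached 5514, 5795 and 5265 CPM. Its rise of 10.56 ± 0.36 (SE) was the largest in the genome on the log2 scale (edgeR adjusted p = 1.4e-05), and within the batches it came to 11.09, 10.76 and 9.53, the smallest of these in batch 3, where the t0 level was highest. The rise was 11.18 without batch 3. *GAL2*, the permease gene on chromosome XII (chrXII:290212-291936, plus strand), went from 14.5, 17.5 and 24.6 CPM to 13683, 14473 and 14238 CPM, a rise of 9.58 ± 0.20 (SE, edgeR adjusted p = 5.5e-07).

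Read per length, the order of the 4 genes at t2 was *GAL1* with 9176 ± 501 CPM per kilobase (SD, n = 3), *GAL2* with 8192 ± 235, *GAL7* with 5018 ± 241 and *GAL10* with 3818 ± 206. These intervals of 1 SD did not overlap between neighbours. At t0 the order was the same for *GAL1*, at 20.2 ± 3.77 CPM per kilobase, but *GAL10* (12.2 ± 1.02) and *GAL2* (10.9 ± 2.99) lay within their spread of each other, and *GAL7* was last at 3.48 ± 2.23. Among all 6209 genes ranked by level per length, *GAL1* moved from between places 4246 and 4940 to between places 4 and 6, and *GAL7* from between places 5710 and 6051 to places 14 and 15. Together the 4 genes took 0.00810% ± 0.00170 of all counts at t0 (SD, n = 3) and 4.17% ± 0.0930 at t2, with a range of 4.11% to 4.28% over the t2 libraries.

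**Figure D1:**
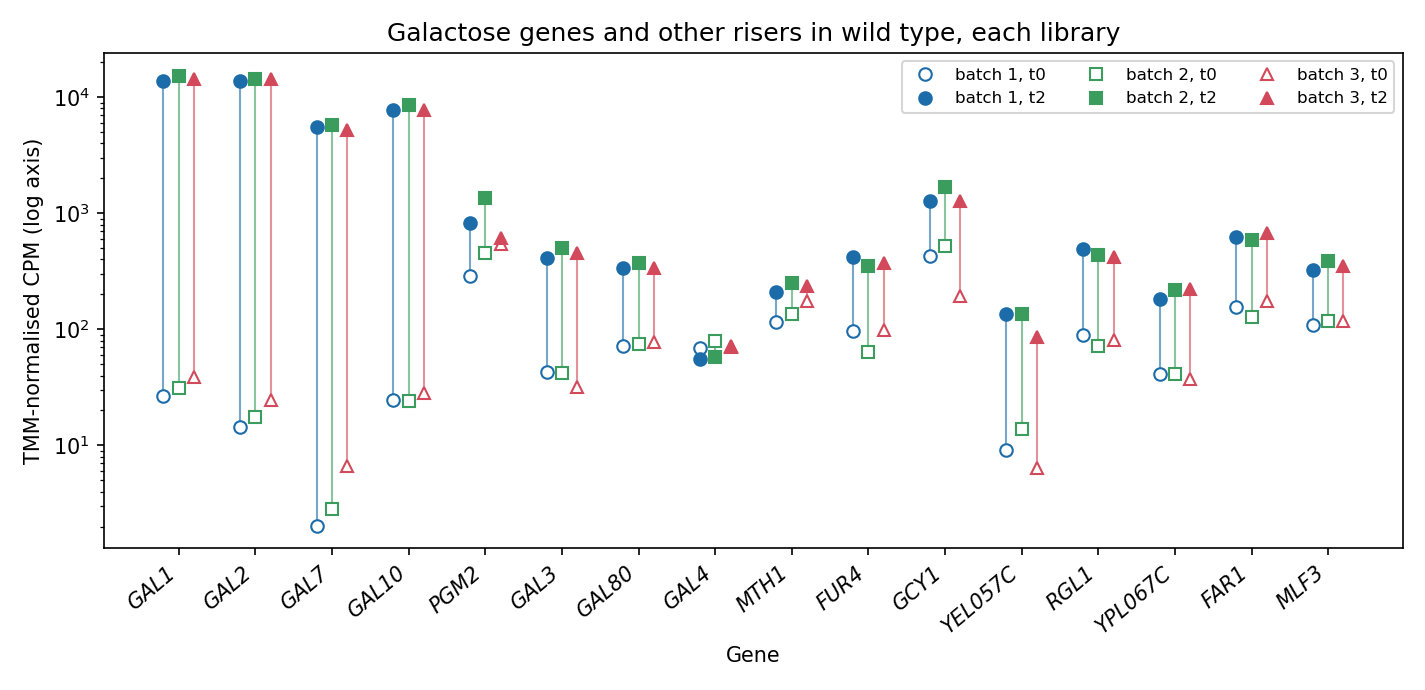
Levels of 16 genes of the galactose response in each WT library, in TMM-normalised CPM on a log axis, with open symbols for t0, filled symbols for t2, and a line joining the libraries of a batch. *GAL1*, *GAL2*, *GAL7* and *GAL10* start at 38.5 CPM or less and end at 5265 CPM or more in every batch, *GAL4* does not rise, and *PGM2* in batch 3 ends close to where it started.

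*PGM2*, the fifth gene of the pathway, was already expressed on lactate and rose less. It stood at 289, 456 and 544 CPM at t0 and 819, 1350.0 and 610.0 CPM at t2. The t2 library of batch 3 lay close to its t0 library, and the change within batch 3 was 0.16 on the log2 scale, against 1.56 in batch 2. The rise of 1.08 ± 0.26 (SE) passed the test with the batch block (edgeR adjusted p = 0.035) but not without it (edgeR adjusted p = 0.067), nor in DESeq2 with the batch term (adjusted p = 0.069), without batch 1 (edgeR adjusted p = 0.196) or without batch 2 (edgeR adjusted p = 0.137). No match to the Gal4 sequence was found in the 500 bases upstream of *PGM2*.

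The regulators moved far less than the enzymes. Of 11 genes listed as regulators of galactose and hexose sensing, 3 were called higher, none lower and 8 were not called. Over all genes 1.51% were called higher and 2.96% lower. The median log2 change of the list was -0.08 against -0.01 over all genes tested. *GAL3*, whose product senses galactose, rose from 42.6, 42.0 and 31.5 CPM to 408, 497 and 452 CPM, a change of 3.55 ± 0.13 (SE, edgeR adjusted p = 1.4e-05). *GAL80*, the inhibitor of Gal4, rose from 71.4, 74.4 and 77.0 CPM to 341, 373 and 341 CPM, a change of 2.24 ± 0.09 (SE, edgeR adjusted p = 1.4e-05). Both genes were thus higher in all t2 libraries than in any t0 library. *MTH1*, which encodes a co-repressor of hexose transporter genes, rose by 0.73 ± 0.11 (SE, edgeR adjusted p = 0.010), from 115, 134 and 176 CPM to 208, 253 and 238 CPM. *GAL4* itself was at 68.6, 78.6 and 71.1 CPM and then at 56.1, 57.4 and 72.1 CPM, which overlap, and its change of -0.24 ± 0.10 (SE) was not called (edgeR adjusted p = 0.164). The glucose repressor genes *MIG1* (-0.18 ± 0.09), *MIG2* (-0.48 ± 0.11) and *MIG3* (-0.07 ± 0.21, all SE) were not called, nor were the sensor genes *RGT2* (0.23 ± 0.09) and *SNF3* (-0.43 ± 0.11), *RGT1* (0.01 ± 0.07) and *STD1* (-0.45 ± 0.25). *MIG2*, which has a Gal4 match upstream, and *SNF3* had an adjusted p under 0.05 but stayed short of the 1.5-fold limit.

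The GAL cluster on chromosome II was followed by a further riser on one side only. *KAP104*, a nuclear import receptor gene that ends the cluster beyond *GAL7*, had a log2 change of -0.06 ± 0.07 (SE, edgeR adjusted p = 0.621). On the *GAL1* side lies *FUR4*, the uracil permease gene, 835 bases past the end of *GAL1* and on the same strand. *FUR4* rose from 96.1, 63.7 and 98.6 CPM to 424, 349.5 and 373 CPM, by 2.17 ± 0.12 (SE, edgeR adjusted p = 1.2e-04), although no Gal4 match was found in its own 500 bases upstream. The next gene, *POA1*, started 393 bases further on and had a change of -0.17 ± 0.10 (SE, edgeR adjusted p = 0.321). *KAP104* and *POA1* were chosen for their position, with their values in view.

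Of 8 further genes listed as targets of Gal4, 4 were called higher, 1 lower and 3 were not called. Over all genes 1.51% were called higher and 2.96% lower, and the list median was 0.58. YEL057C, of unknown function, rose most, from 9.20, 13.8 and 6.45 CPM to 135, 135 and 86.2 CPM (3.61 ± 0.13, SE, edgeR adjusted p = 1.4e-05). *GCY1*, which encodes a glycerol dehydrogenase, rose from 429, 523 and 194 CPM to 1288, 1690.2 and 1287 CPM (2.00 ± 0.22, SE, edgeR adjusted p = 0.0059). In this gene batch 3 gave the largest change, with 1.58, 1.69 and 2.72 within the batches and the lowest t0 level. *PCL10*, a cyclin of the Pho85 kinase, rose by 0.78 ± 0.08 (SE, edgeR adjusted p = 0.0043). *REE1* went the other way, from 84.5, 92.1 and 85.0 CPM to 46.5, 48.99 and 65.5 CPM (-0.71 ± 0.12, SE, edgeR adjusted p = 0.013). *LAP3* (0.39 ± 0.18, SE), the gene of a cysteine aminopeptidase, *NAR1* (0.21 ± 0.10, SE), and *YPS3* (0.16 ± 0.08, SE), a yapsin protease gene, were not called.

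Over the genome, 184 of 6209 genes (2.96%) had at least 1 match to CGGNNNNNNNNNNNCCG in the 500 bases before the start codon. Among the 94 genes called higher 18 had one (19.1%), and among the 184 called lower 6 had one (3.26%). Among the 12 largest rises 9 had one, and among the 12 largest falls 2 had one. A shared site is counted for each of its genes. Of the 12 largest rises, those without a match were *FUR4*, *OPT2* and YDR010C. *OPT2*, an oligopeptide transporter gene, rose from 41.8, 37.0 and 44.6 CPM to 236, 139.7 and 159 CPM (2.09 ± 0.13, SE, edgeR adjusted p = 3.3e-04). YDR010C is a dubious open reading frame on the opposite strand to *GAL3*, and the ends of both lie 54 bases apart. The library kit does not mark strand, so its rise of 3.41 ± 0.13 (SE) cannot be told apart from reads that run past *GAL3*. The same holds for YOR121C, which lies within *GCY1* and changed by 2.04 ± 0.20 (SE).

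Several genes outside sugar metabolism rose as evenly as the GAL regulators. *FAR1*, the inhibitor of the cyclin-dependent kinase that arrests a cells exposed to pheromone, had 155, 128 and 175 CPM at t0 and 622, 591 and 669.9 CPM at t2, a rise of 2.05 ± 0.10 (SE, edgeR adjusted p = 5.8e-05). All t2 libraries were above all t0 libraries, and the changes within the batches were 2.00, 2.20 and 1.93. *RGL1*, which encodes a regulator of Rho1 signalling, went from 89.4, 72.2 and 80.7 CPM to 491, 441 and 424 CPM (2.49 ± 0.09, SE), and its divergent neighbour YPL067C, of unknown function, from 41.3, 40.9 and 37.1 CPM to 184, 216 and 223 CPM (2.38 ± 0.10, SE). The edgeR adjusted p was 1.4e-05 for *RGL1* and 2.6e-05 for YPL067C. *MLF3*, *RAS1* and *RUP1* were picked after their values were seen. *MLF3*, of unknown function, rose from 109, 118 and 118 CPM to 327, 385 and 349 CPM (1.62 ± 0.08, SE), *RAS1*, a GTPase of the cyclic AMP pathway, by 1.09 ± 0.10 (SE), and *RUP1*, which acts on the ubiquitin ligase Rsp5, by 0.90 ± 0.10 (SE). Each of these 3 was called, with edgeR adjusted p of 8.6e-05, 0.0031 and 0.0056.

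The steepest falls were in genes of gluconeogenesis and the glyoxylate cycle, and they were unequal between batches. *PCK1*, which encodes phosphoenolpyruvate carboxykinase (chrXI:631152-632801), was at 4818, 5453 and 79.5 CPM at t0 and at 37.3, 54.7 and 17.4 CPM at t2. The t0 library of batch 3 was thus near the t2 libraries of the other batches, although the level fell within each batch, by -6.99, -6.63 and -2.16 on the log2 scale. Over the 3 batches *PCK1* changed by -5.59 ± 1.02 (SE, edgeR adjusted p = 0.016), and without batch 3 by -6.82. *FBP1*, the fructose-1,6-bisphosphatase gene, was at 2045, 2309 and 48.4 CPM and then at 46.5, 101 and 31.0 CPM (-3.78 ± 0.92, SE, edgeR adjusted p = 0.035). In batch 3 its change was slight, at -5.44, -4.50 and -0.64 for the batches in order. *SFC1*, the mitochondrial succinate-fumarate carrier gene, had 1063, 1114 and 51.1 CPM and then 49.2, 86.8 and 34.1 CPM (-3.05 ± 0.70, SE, edgeR adjusted p = 0.029). *ADH2*, whose enzyme oxidizes ethanol, had 6745, 8425 and 514 CPM and then 427, 1348 and 340.3 CPM (-2.44 ± 0.59, SE, edgeR adjusted p = 0.034). Both repeat the *PCK1* pattern, with batch 3 low before galactose was added. Without batch 3 the log2 changes were -4.95 for *FBP1*, -4.04 for *SFC1* and -3.31 for *ADH2*, and without batch 1 they were -2.67, -2.21 and -1.61, and -4.53 for *PCK1*, none of them called. Without batch 2 the change was -4.70 for *PCK1*, which was called, and -3.13 for *FBP1*, which was not, like *SFC1* and *ADH2*.

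Of the 27 genes listed for gluconeogenesis, the glyoxylate cycle and acetate use, 14 were called lower, none higher and 13 were not called, beside 2.96% of all genes called lower. Their median log2 change was -0.93 over the 3 batches, and -1.48, -0.99 and -0.25 within batches 1, 2 and 3. Without batch 3, 21 of the 27 were called lower (19 by DESeq2), beside 5.22% of all genes. Without batch 2 edgeR called 6 lower (3 by DESeq2), and without batch 1 none (2 by DESeq2). Of the 27 genes, 24 had their lowest t0 level in batch 3, and 17 were lower at t2 in every batch. *IDP2*, the cytosolic isocitrate dehydrogenase gene, fell from 1585, 1721 and 344 CPM to 209.6, 389 and 166 CPM (-2.05 ± 0.32, SE, edgeR adjusted p = 0.011). *ALD4*, a mitochondrial aldehyde dehydrogenase gene, fell by -1.26 ± 0.16 and *CAT2*, a carnitine acetyltransferase gene, by -1.08 ± 0.15 (both signed log2 changes with SE, edgeR adjusted p of 0.0081 and 0.0093). *CAT8*, the activator of gluconeogenic genes, was an exception in its evenness. It was at 127, 152 and 118 CPM and then at 79.7, 95.8 and 81.1 CPM, a change of -0.63 ± 0.07 (SE, edgeR adjusted p = 0.0063), with no overlap between times. *ICL1*, which encodes isocitrate lyase and was chosen after its values were seen, had 1238, 1555 and 123 CPM and then 137, 264 and 107 CPM. The summed level of the 27 genes was 3.17%, 3.70% and 0.998% of all counts at t0 and 0.724%, 1.07% and 0.722% at t2.

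**Figure D2:**
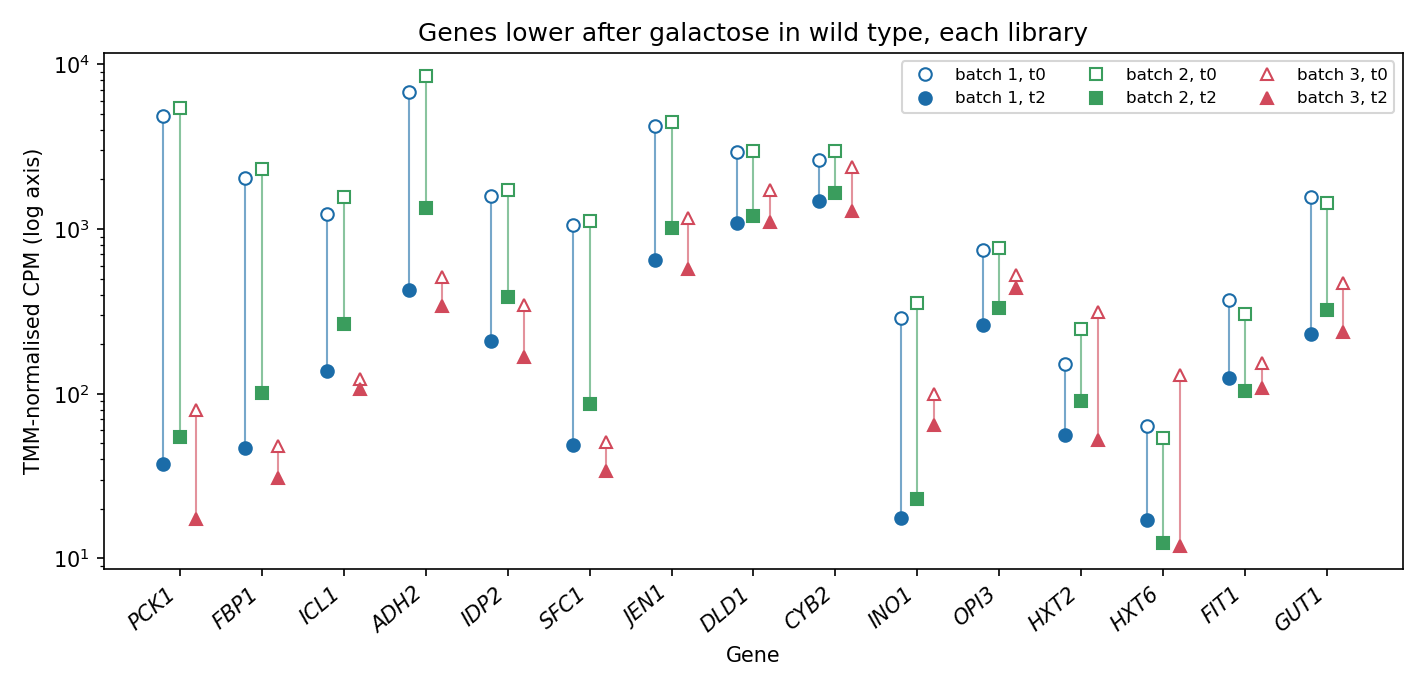
Levels of 15 genes called lower at t2 in each WT library, in TMM-normalised CPM on a log axis, with open symbols for t0, filled symbols for t2, and a line joining the libraries of a batch. For *PCK1*, *FBP1*, *ICL1*, *ADH2* and *SFC1* the t0 library of batch 3 lies far below those of batches 1 and 2, whereas for *HXT2* and *HXT6* it lies above them, and *CYB2* fell alike in all batches.

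Of the 10 genes listed for lactate uptake and oxidation, 4 were called lower and none higher, beside 2.96% and 1.51% of all genes, with a median of -0.90. Without batch 3, 6 were called lower and 1 higher, beside 5.22% and 3.04% of all genes. Without batch 2 edgeR called 3 lower (2 by DESeq2), and without batch 1 none (3 by DESeq2). *JEN1*, the lactate permease gene, fell from 4230.2, 4465 and 1168 CPM to 648, 1012 and 572 CPM (-1.96 ± 0.29, SE, edgeR adjusted p = 0.010). Its t0 level in batch 3 was again low, but still above all t2 libraries. *CYB2*, the L-lactate dehydrogenase gene, went from 2607, 2994 and 2375 CPM to 1478, 1645 and 1278 CPM (-0.86 ± 0.09, SE, edgeR adjusted p = 0.0049), and *DLD1*, the D-lactate dehydrogenase gene, from 2928, 2954 and 1733 CPM to 1087, 1193 and 1105 CPM (-1.13 ± 0.16, SE, edgeR adjusted p = 0.0095). In both genes every t0 library was above every t2 library. *ATO2*, a putative ammonium exporter gene of the acetate transporter family, changed by -0.95 ± 0.20 (SE, edgeR adjusted p = 0.023). Its relatives *ADY2* (-0.96 ± 0.39) and *ATO3* (-1.05 ± 0.32, both SE) were not called over 3 batches but were without batch 3. Both differed in sign between batches, with -1.94, -0.85 and 0.98 for *ADY2* and -1.53, -1.65 and 0.10 for *ATO3*. *DLD2* (-0.11 ± 0.08), *DLD3* (0.44 ± 0.08) and the cytochrome c genes *CYC1* (-0.14 ± 0.10) and *CYC7* (0.50 ± 0.50, all SE) were not called, and *CYC7* differed in sign between batches, with 1.57, 1.33 and -1.18, and was called higher without batch 3 (1.46).

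Few genes of the tricarboxylic acid cycle, ATP synthase and mitochondrial ribosomes were called, although their list medians were below 0. Of 17 genes of the tricarboxylic acid cycle 3 were called lower, beside 2.96% of all genes, and 10 were lower at the adjusted p alone, beside 8.46%. The median of the list was -0.46 and changed little between batches (-0.42, -0.45 and -0.39). However, 7 genes were called lower without batch 3, beside 5.22% of all genes. Without batch 2 there was 1, and without batch 1 there were 0 (1 by DESeq2). *KGD1*, a subunit gene of 2-oxoglutarate dehydrogenase, fell from 1758, 1890.3 and 1226 CPM to 822, 923 and 792 CPM (-0.92 ± 0.12, SE, edgeR adjusted p = 0.0081), *KGD2* changed by -0.61 ± 0.10 and *LSC2*, for succinyl-CoA ligase, by -0.73 ± 0.13 (both SE, called). Of 17 genes of ATP synthase and its regulators, 11 were lower at the adjusted p alone, beside 8.46% of all genes. All 17 had a change below 0 in every batch, with a median of -0.37. Past the 1.5-fold limit were 2 of the 17, beside 2.96% of all genes. They were *STF1* (-0.86 ± 0.09, SE) and *STF2* (-0.70 ± 0.14, SE), whose products are described as regulators of the enzyme and not as subunits. Of 23 genes of the respiratory chain none was called, and 1 was lower at the adjusted p alone. Of 66 genes for mitochondrial ribosomal proteins 45 were lower at the adjusted p alone, beside 8.46% of all genes, and 62 were lower at t2 in every batch. Only MRPL24 (-0.62 ± 0.07, SE, edgeR adjusted p = 0.0059) was called, beside 2.96% of all genes, the median being -0.38. Without batch 3, 11 were called lower, beside 5.22% of all genes, and without batch 1 there were 0.

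Of 19 genes of peroxisomal fatty acid oxidation 7 were called lower and none higher, beside 2.96% and 1.51% of all genes, with a median of -0.40. Without batch 3 there were 10 lower, beside 5.22% of all genes, and *ANT1*, a peroxisomal adenine nucleotide transporter gene, was called higher (0.66). Without batch 2 there were 4 lower, and without batch 1 *POX1* alone was called. *POX1*, the gene of acyl-CoA oxidase, fell from 151, 172 and 68.0 CPM to 27.3, 62.5 and 32.2 CPM (-1.67 ± 0.23, SE, edgeR adjusted p = 0.0090). *FAA2*, an acyl-CoA synthetase gene, changed by -0.98 ± 0.14, *PXA1*, a transporter gene of the peroxisomal membrane, by -1.14 ± 0.18, and *SPS19*, a dienoyl-CoA reductase gene, by -0.78 ± 0.15 (all SE, all called). The glycerol genes *GUT1*, for glycerol kinase, and *GUT2*, for glycerol-3-phosphate dehydrogenase, fell too. *GUT1* was at 1573, 1432 and 473 CPM and then at 229.5, 324 and 238 CPM (-1.98 ± 0.30, SE, edgeR adjusted p = 0.011), and *GUT2* at 1633, 1585 and 1241 CPM and then at 699, 812 and 716 CPM (-0.99 ± 0.11, SE, edgeR adjusted p = 0.0059). In the same list of 12 genes for glycerol and osmotic stress, *GPP1*, which makes glycerol from its phosphate, rose by 0.98 ± 0.17 (SE, edgeR adjusted p = 0.016).

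Few glycolytic genes were called. Of 24 genes of glycolysis and fermentation 2 were called lower and none higher, beside 2.96% and 1.51% of all genes. The list median was -0.09, with medians of -0.13, 0.13 and -0.30 within the batches. The 2 called genes were the alcohol dehydrogenase genes *ADH3* (-0.70 ± 0.15, SE, edgeR adjusted p = 0.026) and *ADH5* (-0.74 ± 0.11, SE, edgeR adjusted p = 0.010). Of 15 hexose transporter genes 4 were called lower, beside 2.96% of all genes. *HXT2* went from 153, 246 and 313 CPM to 56.2, 90.1 and 52.2 CPM (-1.82 ± 0.22, SE, edgeR adjusted p = 0.0066), and *HXT5* from 466, 732 and 103 CPM to 130.1, 281 and 77.6 CPM (-1.23 ± 0.24, SE, edgeR adjusted p = 0.019). *HXT6* (-2.49 ± 0.27, SE) and *HXT7* (-1.85 ± 0.37, SE) were called as well, but only 4.93% of 50-base windows in each of them are unique in the genome, so reads of these near-identical genes could be assigned to either or lost. The change of *HXT7* was -1.21 without batch 3, and without batch 1 (-2.05) it was not called. *HXT6* in batch 3 began at the highest level of all and fell furthest, with -1.86, -2.06 and -3.38 within the batches. *MAL12* (-1.21 ± 0.25, SE), a maltase gene with 16.4% unique windows, and *IMA1* (-0.91 ± 0.20, SE), an isomaltase gene, were called lower in the list of maltose and other sugar genes. Of 18 trehalose and glycogen genes 3 were called lower, beside 2.96% of all genes. These were *GLC3* (-0.74 ± 0.13), for the glycogen branching enzyme, and *GAC1* (-0.62 ± 0.10) and *PIG2* (-0.89 ± 0.19, all SE), for regulatory subunits of the phosphatase Glc7.

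Among the other large falls was that of *INO1*, the gene of inositol-3-phosphate synthase. It was at 289, 353 and 99.7 CPM at t0 and 17.6, 22.9 and 64.5 CPM at t2, a change of -2.83 ± 0.65 (SE, edgeR adjusted p = 0.030). The batches ranged widely, at -4.00, -3.92 and -0.62, and the change was -3.99 without batch 3, -2.19 without batch 1 and -2.23 without batch 2, the last 2 not called. In the list of 35 sterol and inositol genes it was called lower with 3 genes of phospholipid synthesis, *OPI3* (-1.002 ± 0.22), *CHO1* (-0.88 ± 0.21) and *PSD1* (-0.63 ± 0.15, all SE), while 31 were not called and the median was 0.06. *FDH1* and *FDH2*, which resemble formate dehydrogenase genes, changed by -2.60 and -2.66 on the log2 scale, but 15.8% and 15.7% of their windows are unique and YPL276W (-2.31 ± 0.30, SE) overlaps *FDH2*, so the 3 are not independent. YLR307C-A (-2.83 ± 0.40, SE), of unknown function, *RGI2* (-2.25 ± 0.42, SE), a respiratory growth gene, and *YIG1* (-2.13 ± 0.24, SE), linked to glycerol production, completed the 12 largest falls. The change of *RGI2* was -2.86 without batch 3, and without batch 1 that of *FDH1* was -1.91 and was not called.

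Most genes for making ribosomes had small changes above 0, and few were called. All 111 genes listed for ribosome biogenesis had a log2 change above 0 and 108 were higher at t2 in every batch, with a median of 0.40 and, within the batches, medians of 0.50, 0.39 and 0.34. At the adjusted p alone 86 of 111 were higher, beside 7.52% of all genes, and 8 passed the 1.5-fold limit as well, beside 1.51%. Without batch 3, 18 were called higher, beside 3.04% of all genes, and without batch 1 there were 0 (1 by DESeq2). *DBP2*, an RNA helicase gene, rose from 242, 209 and 299.9 CPM to 459, 400.0 and 507 CPM (0.87 ± 0.09, SE, edgeR adjusted p = 0.0049). *ENP1* (0.70 ± 0.07), *DBP8* (0.69 ± 0.08) and *RRP1* (0.62 ± 0.09, all SE), which act in processing of ribosomal RNA, were called too. Of 21 subunit genes of RNA polymerases I and III 13 were higher at the adjusted p alone, beside 7.52% of all genes. In every batch 20 were higher at t2. Past the limit were 2, beside 1.51% of all genes, namely *RPA135* (0.64 ± 0.09, SE) and *RPA14* (0.64 ± 0.10, SE). *RPA14* overlaps YDR157W. The sequence GATGAG, read on either strand and known as the core of the PAC element of such genes, was present in the 500 bases upstream of 47.9% of the 94 genes called higher, of 20.7% of the 184 called lower and of 27.7% of all genes.

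Of the 138 genes for cytosolic ribosomal proteins 34 were higher at the adjusted p alone, beside 7.52% of all genes, and none was called. The list had 127 genes higher at t2 in every batch and a median of 0.30. The summed level of the 138 genes was 10.6%, 10.7% and 14.1% of counts at t0 and 14.1%, 12.9% and 15.1% at t2. In 135 of the 138 genes batch 3 had the highest t0 level. Of 26 translation factor genes none was called, with a median of 0.13. Among 9 pyrimidine synthesis genes *URA2* (0.76 ± 0.12, SE, edgeR adjusted p = 0.013) and *URA1* (1.02 ± 0.28, SE, edgeR adjusted p = 0.048) were called higher, and *URA1* was at 252, 277 and 721 CPM and then at 847, 635 and 775 CPM, so that in batch 3 it was high before galactose. In the purine list of 23 genes *IMD4* (0.68 ± 0.13, SE), for GTP synthesis, was called higher, and *ADE17* (-1.13 ± 0.14, SE), for IMP synthesis, and *ADE12* (-0.62 ± 0.08, SE), for AMP synthesis, were called lower. The strains carry an ade2 mutation.

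**Figure D3:**
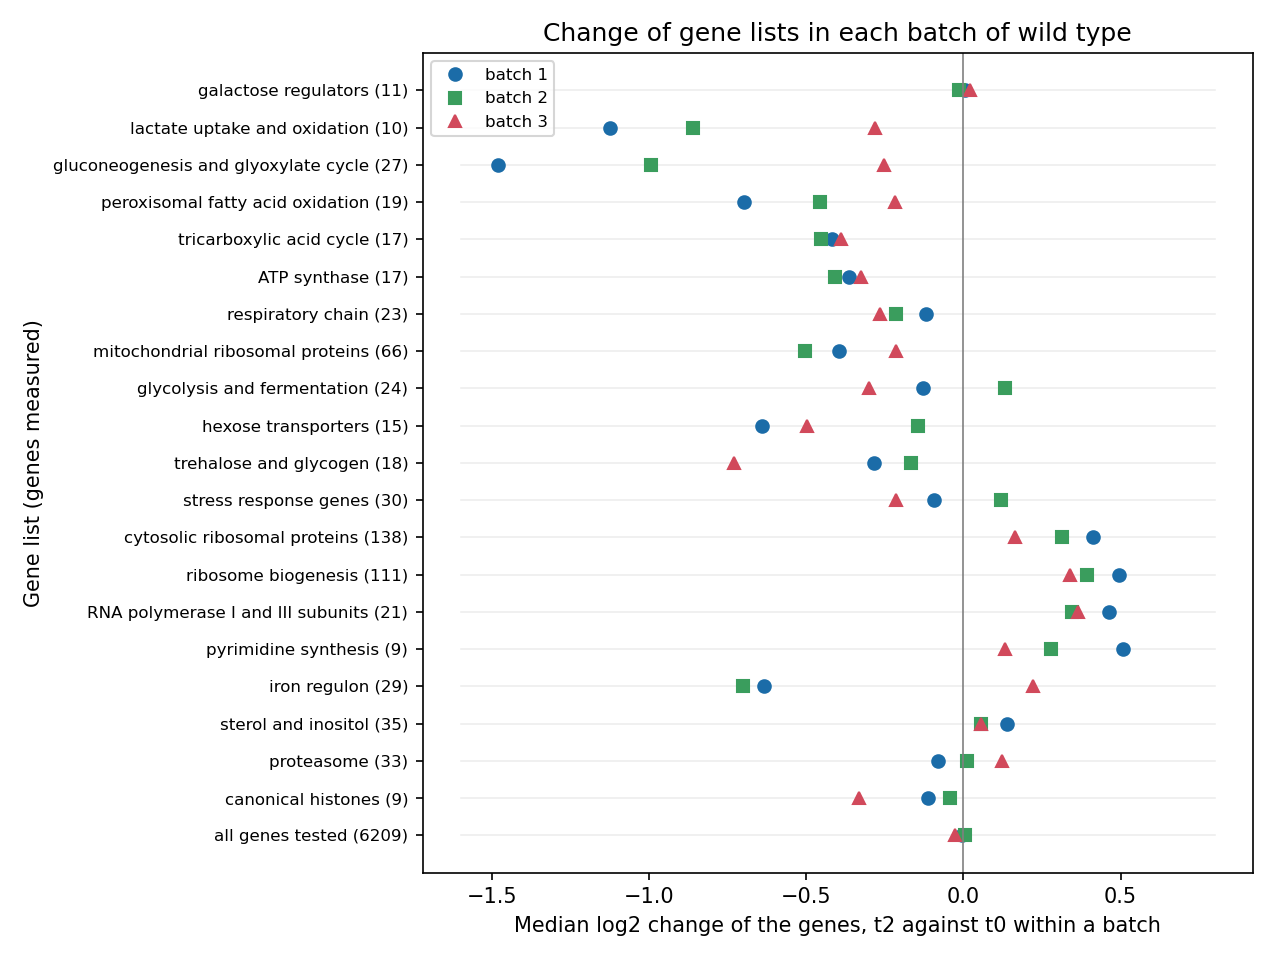
Median log2 change from t0 to t2 of the genes of 20 lists and of all 6209 genes, with 1 symbol for each batch of WT and the number of genes measured in brackets. Lists of ribosome synthesis lie right of 0 and those of the tricarboxylic acid cycle and ATP synthase left of 0 in all batches, whereas for gluconeogenesis batch 3 (-0.25) lies far from batch 1 (-1.48) and for the iron regulon it has the opposite sign.

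Amino acid genes showed isolated changes. *GCV1* (-1.05 ± 0.16), *GCV2* (-1.17 ± 0.16) and *GCV3* (-0.67 ± 0.11, all SE), the 3 genes specific to the glycine cleavage system, were called lower, and no other of the 39 genes in their list was called. *ARG1*, the argininosuccinate synthetase gene, fell from 325, 299 and 336 CPM to 153, 148 and 193 CPM (-0.97 ± 0.09, SE, edgeR adjusted p = 0.0036), and *ALP1*, a basic amino acid permease gene, changed by -1.51 ± 0.34 (SE, edgeR adjusted p = 0.029). In the methionine list of 33 genes *SUL1* (-1.42 ± 0.29, SE), a sulfate permease gene, and *MET13* (-0.82 ± 0.15, SE) were called lower and *CYS3* (0.67 ± 0.09, SE), for cystathionine gamma-lyase, higher. No gene of the lysine or of the branched-chain list was called. *AGP1* (-0.61 ± 0.11, SE), an amino acid permease gene, and *GDH2* (-1.35 ± 0.25, SE), for glutamate dehydrogenase, were called lower in the nitrogen list. In the thiamine and biotin list *PHO3* (0.85 ± 0.09, SE), a phosphatase gene, was called higher, and *SNZ2* (-0.77 ± 0.16, SE) and *SNZ3* (-0.87 ± 0.17, SE) lower, both with 22.9% unique windows. The phosphate transporter gene *PHO90* rose by 0.63 ± 0.07 (SE), and the zinc transporter gene *ZRT1* changed by -1.25 ± 0.17 (SE, both called).

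The iron regulon depended on the batch. Of 29 genes 1 was called lower, beside 2.96% of all genes, namely *FIT1* (-1.21 ± 0.20, SE, edgeR adjusted p = 0.014), which encodes a cell wall mannoprotein that holds iron-siderophores. Without batch 3, 16 of the 29 were called lower (15 by DESeq2), beside 5.22% of all genes, and without batch 1 there were 0 (1 by DESeq2). The medians within the batches were -0.64, -0.70 and 0.22, so batch 3 had the opposite sign, and 25 of the 29 genes had their lowest t0 level in batch 3.

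Stress genes and chaperones gave mixed results. Of 30 stress response genes 5 were called higher and 2 lower, beside 1.51% and 2.96% of all genes, with a median of -0.13. *GRE1*, a hydrophilin gene, rose from 45.5, 73.6 and 13.9 CPM to 115, 172 and 89.2 CPM (1.64 ± 0.24, SE, edgeR adjusted p = 0.0100), and the Hsp70 gene *SSA4* rose by 0.90 ± 0.14 (SE). *GPX1* (-1.25 ± 0.13, SE), a peroxidase gene, and OM45 (-1.27 ± 0.17, SE), of the mitochondrial outer membrane, were called lower. *CTT1*, which encodes catalase and was chosen after its values were seen, was at 75.8, 125 and 225 CPM and then at 565, 805 and 279 CPM (2.00 ± 0.48, SE, edgeR adjusted p = 0.034), and its change in batch 3 was small (2.89, 2.69 and 0.31). Without batch 3 *CTT1* rose by 2.79, and without batch 1 (1.51) or batch 2 (1.59) it was not called. Among 20 chaperone genes *SSA2* (1.05 ± 0.13, SE, edgeR adjusted p = 0.0081) was the only one called, and 41.9% of its windows are unique. None of 33 proteasome genes, 9 histone genes or 12 genes of DNA damage and ribonucleotide reductase was called, with medians of 0.03, -0.15 and -0.03. Beside *FAR1*, the only called gene among 25 of cyclins and cell cycle transcription was *HO* (0.62 ± 0.09, SE), the mating-type endonuclease gene. In the pheromone list of 27 genes *FUS1* (-0.85 ± 0.16, SE), for cell fusion, and *PRM4* (-1.38 ± 0.24, SE) were called lower. *TIP1* (-0.99 ± 0.27, SE, edgeR adjusted p = 0.049) was the only called gene of 22 in the cell wall list, and none of the 7 a-specific, 3 alpha-specific and 17 sporulation genes was called.

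Batch 3 was compared with the others across all genes. The log2 changes of the 6209 genes had Pearson's r of 0.78 between batches 1 and 2, 0.50 between batches 1 and 3, and 0.52 between batches 2 and 3, as a description across genes, which are not independent replicates and share their libraries. Spearman's rank correlations were lower, at 0.63, 0.35 and 0.39 in the same order. Of the 184 genes called lower, 155 had their lowest t0 level in batch 3, beside 2437 of all 6209 genes. In 69 of the 184 the change in batch 3 was less than 50% of that in the other batches. This was so for 21 of the 94 called higher and for 1702 of all 6209 genes. Of the 94 called higher, 58 had their highest t0 level in batch 3, beside 2400 of all genes. The t2 libraries differed less, since the median gene called lower was 0.48 lower in batch 3 than in the others at t0 and 0.20 lower at t2 on the log2 scale. In the other genotypes of the series some genes, but not all, set batch 3 apart at t0. In their t0 libraries *PCK1* was at 3306 to 6103 CPM in batches 1 and 2 (9 libraries) and at 76.2 to 1057 CPM in batch 3 (5 libraries), and *HXT7* was at 146 to 225 CPM and at 332 to 678 CPM. *GAL1* was also higher in batch 3 at t0, without overlap. It was at 20.9 to 29.3 CPM in batches 1 and 2 and at 36.9 to 44.5 CPM in batch 3 at t0, and at t2 it was at 13481 to 22161 CPM in these 14 libraries. *HXT2* and *FAR1* overlapped between batches at t0 in the other genotypes. *HXT2* was at 125 to 408 CPM in batches 1 and 2 and at 170 to 270 CPM in batch 3. *FAR1* was at 113 to 228 CPM and at 145 to 211 CPM. The part of culture growth, strain and batch in these values was not tested.

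**Figure D4:**
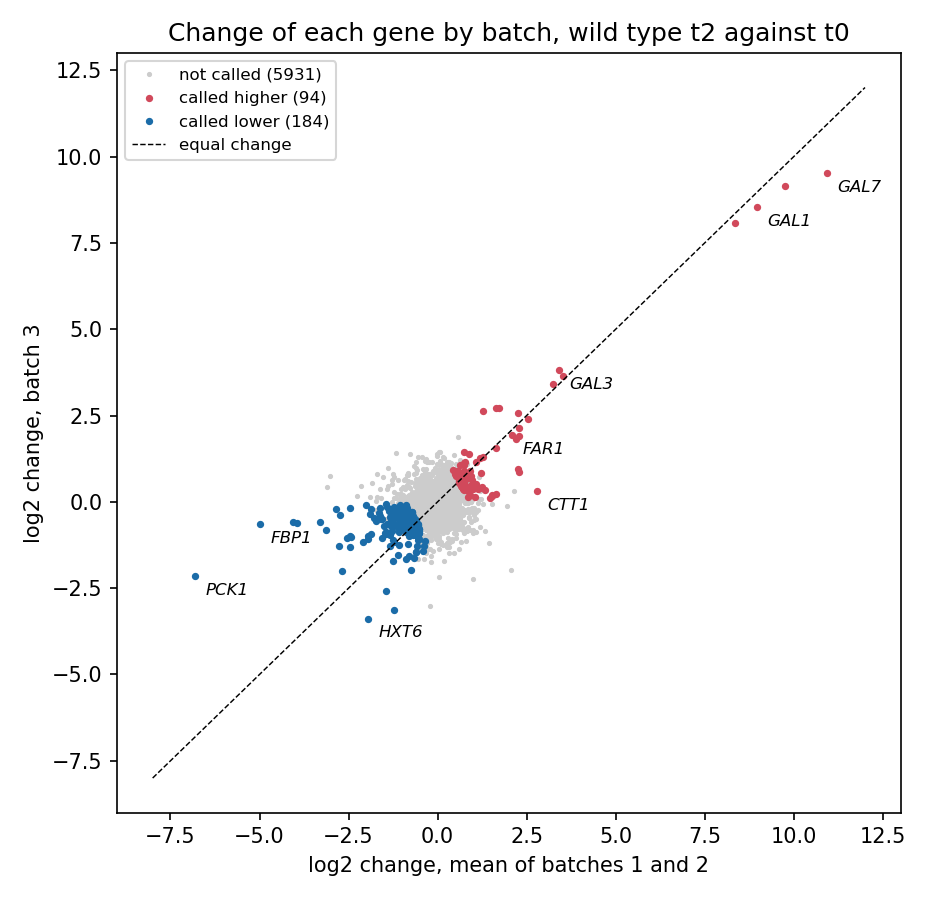
Log2 change from t0 to t2 of each of 6209 genes, with the mean of batches 1 and 2 on the horizontal axis and batch 3 on the vertical axis, the 94 genes called higher in red, the 184 called lower in blue and the line of equal change dashed. *GAL1*, *GAL3* and *FAR1* lie close to the line, whereas *PCK1*, *FBP1* and *CTT1* changed far less in batch 3 and *HXT6* more.

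Across the 8 other fits tried (no block, another filter, another normalization, DESeq2, all 34 libraries, and each batch left out), 20 genes were called higher and 9 lower in every one. The 20 comprise *GAL1*, *GAL2*, *GAL3*, *GAL7*, *GAL10* and *GAL80*, YEL057C, YDR010C, *RGL1*, YPL067C, *FUR4*, *OPT2*, *FAR1*, YOR121C, *GCY1*, *MLF3*, *RAS1*, *SSA2*, *RUP1* and *ERO1*, and 13 of them have a Gal4 match upstream. The 9 comprise *HXT6*, *YIG1*, *HXT2*, *POX1*, *GPX1*, *LEE1*, *PRR2*, *AIM33* and YKR075C, of which 1, *YIG1*, has such a match. No gluconeogenic gene is among the 9. *LEE1*, a zinc-finger protein gene, was the most even of these, at 121, 154 and 101 CPM and then at 48.8, 70.0 and 44.6 CPM (-1.21 ± 0.08, SE, edgeR adjusted p = 3.2e-04). *PRR2*, a protein kinase gene, went from 77.1, 105 and 66.4 CPM to 32.6, 54.3 and 27.7 CPM (-1.14 ± 0.09, SE). Neither overlapped between times. *ERO1*, a thiol oxidase gene of the secretory pathway, rose from 118, 130.3 and 95.8 CPM to 186, 274 and 171 CPM (0.86 ± 0.10, SE).

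The response of WT was set against that of psh1Δ, which lacks the E3 ligase that targets Cse4 for proteolysis, and of htz1Δ, which lacks the histone variant H2A.Z. These strains carry no gene under a GAL promoter, and each had 3 t0 and 3 t2 libraries. In a test of the difference in change, with strain as a block, 0 of 6209 genes were called for psh1Δ (168 at an unadjusted p under 0.05, and 0 called by DESeq2) and 0 for htz1Δ (367 at an unadjusted p under 0.05, and 0 called by DESeq2). Without batch 3, edgeR called 17 genes for htz1Δ and none for psh1Δ, and DESeq2 called 28 and 0. *GAL1* rose by 8.80 ± 0.27 (SE) in psh1Δ, and the difference in change, WT minus psh1Δ, was 0.03 ± 0.20 (SE, edgeR adjusted p = 1.0). In htz1Δ *GAL1* rose by 9.45 ± 0.27, *GAL2* by 10.54 ± 0.38 and *GAL10* by 9.13 ± 0.20 (all SE). The differences, WT minus htz1Δ, were -0.59 ± 0.23, -0.94 ± 0.28 and -0.82 ± 0.20, none of which passed the adjustment over 3 batches (edgeR adjusted p = 0.835 for each). Without batch 3 the difference of *GAL10* was -0.89 ± 0.15 (SE) and was called (edgeR adjusted p = 0.0497), that of *GAL2* was called by DESeq2 (adjusted p = 0.016) but not by edgeR (adjusted p = 0.084), and that of *GAL1* by neither. At t2 the htz1Δ libraries had 10533 ± 245 CPM of *GAL10* against 7766 ± 376 in WT (SD, n = 3, normalized over all 34 libraries), and 19371 ± 946 CPM of *GAL1* against 14106 ± 731. The difference in change depends on the t0 levels as well as on these t2 levels. The paper, citing earlier work, describes htz1Δ cells as impaired in GAL promoter induction, while the fitted rises of these genes were not smaller in htz1Δ.

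The other genotypes carry a GAL-driven gene, and their GAL values are given side by side. *GAL7* rose by 10.57 ± 0.54 in WT, 10.45 ± 0.54 in psh1Δ, 11.18 ± 0.55 in htz1Δ, 10.15 ± 0.65 in pGAL-3Flag-CSE4 (n = 2 per time), 10.24 ± 0.53 in psh1Δ pGAL-3Flag-CSE4 and 10.47 ± 0.54 in pGAL-H3 (all SE, from a fit of all 34 libraries). *GAL80* ranged only from 2.09 ± 0.13 in pGAL-3Flag-CSE4 to 2.59 ± 0.11 in htz1Δ. *GAL3* was highest in psh1Δ pGAL-3Flag-CSE4, at 805 ± 22.7 CPM at t2 (SD, n = 3) against 438 ± 42.2 CPM in WT, and this difference was not tested.

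**Figure D5:**
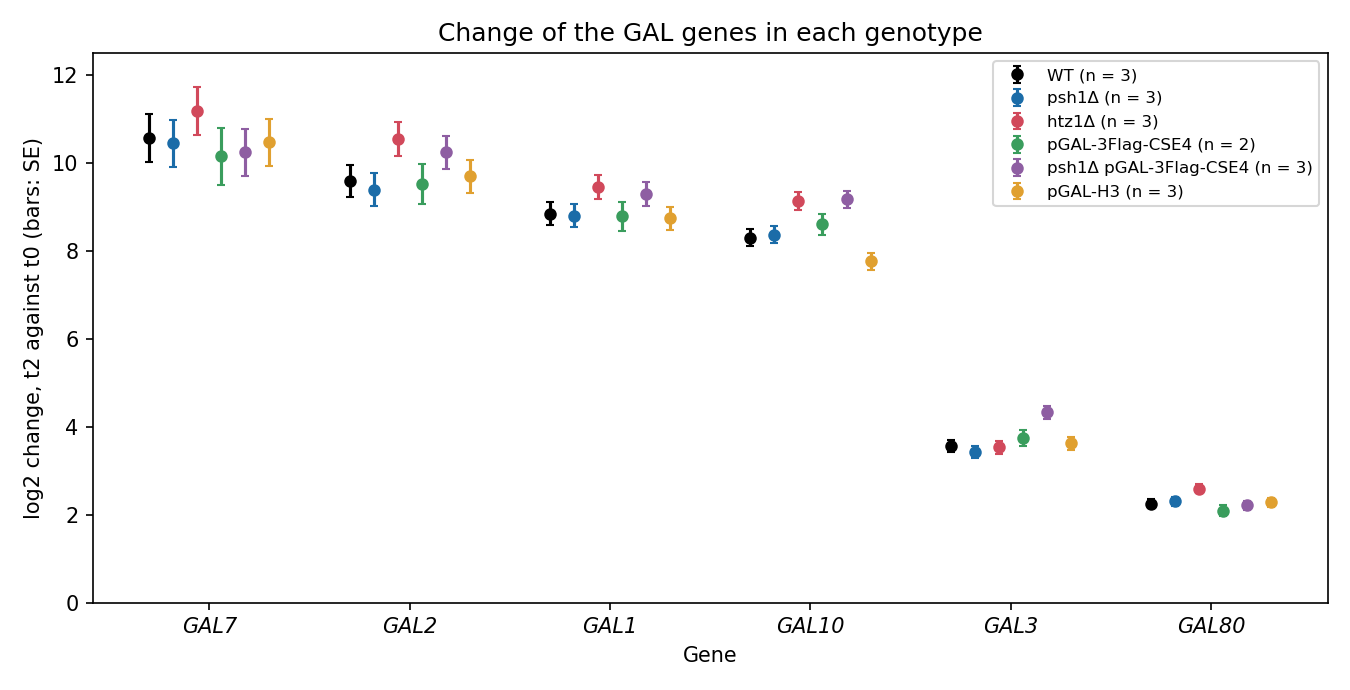
Log2 change from t0 to t2 of 6 GAL genes in each of the 6 genotypes, from 1 fit of all 34 libraries, with bars of 1 SE and the number of libraries per time in the legend. *GAL7*, *GAL2*, *GAL1* and *GAL10* rose by more than 7 on the log2 scale in each genotype, *GAL3* by 3.43 to 4.33 and *GAL80* by 2.09 to 2.59.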

How the data were processed

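RNA was measured by poly(A) RNA-seq (TruSeq RNA v2, which does not mark strand, single 50-base reads). The authors aligned reads to SacCer3 with TopHat 2.1.0, counted them on genes with HTSeq 0.6.1 and removed genes with low counts, and the deposited tables hold these raw counts. The 64 normalized CPM columns and the authors' own fold changes, p-values and marks of significance were not used.

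Counts were analysed in R 4.3.3 with edgeR 4.0.16: TMM library sizes, a model of batch plus time on the 6 WT libraries, glmQLFit and glmQLFTest, Benjamini-Hochberg adjustment over 6209 genes, and a call at adjusted p under 0.05 and at least 1.5-fold. Changes within batches are differences of log2(CPM + 0.5). The batch block follows the labels: t0 and t2 of a batch are one strain, and their deviations from the group means correlated at 0.07, 0.40 and 0.23 in batches 1 to 3. The difference between genotypes was tested as genotype by time with strain as block. Alternatives used DESeq2 1.42.0, its size factors, a filter of 10 counts in 3 libraries, all 34 libraries, and each batch left out, the last also in DESeq2 (added after seeing the data). Code was tested on simulated data.

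The genes named were the 12 largest rises and 12 largest falls among called genes that moved alike in all batches and had a mean of at least 20 counts, all galactose and lactate genes, and up to 4 called genes of each other list with the smallest adjusted p. The members and lists were chosen with earlier results of these data known. Lists are described by counts and medians, without a set test. Batches are separate samples of the genotype by the labels. In fits with a block, p-values rest on the spread between batches of the change from t0 to t2. edgeR shares its estimate of that spread in part across genes. SDs and SEs also hold the spread between libraries, whereas floors of 3 counts cover counting error only. Sequences and windows come from RefSeq R64. In all, 5714 genes matched its annotation, 99.8% of them at the same coordinates.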

Additional observations from a re-analysis of the deposited data

How the results depend on the processing

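Of 94 genes called higher and 184 called lower, leaving out a batch gave 21 to 189 higher and 13 to 324 lower, the lowest without batch 1 and the highest without batch 3. With no fold-change minimum there were 467 higher and 525 lower. Without the replicate block, which ignores the pairing of t0 and t2 within a batch, there were 70 higher and 116 lower, of which 69 and 115 were called with the block as well. The other fits gave 88 to 102 higher and 134 to 178 lower. For htz1Δ against WT, leaving out a batch gave 0 to 17 genes whose change differed, and for psh1Δ 0 in each case. Without batch 3 the prior degrees of freedom were infinite in the WT fit, and DESeq2, added after seeing the data, gave 24 higher and 32 lower without batch 1, 27 and 36 without batch 2, 135 and 252 without batch 3, and, without batch 3, 28 genes for htz1Δ and 0 for psh1Δ. No named gene that was called reversed its direction in the edgeR fits or in DESeq2 with all batches. Of the 100 named genes that were called, 79 lost the call without batch 1, 35 without batch 2, 6 without batch 3 and 25 without the block. Of 43 list medians, 6 changed sign without batch 3. Depth limits the low genes: at 0.475 to 0.537 CPM for 3 counts, changes of genes such as YPL276W rest on few reads.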
